A study of Mus musculus with 8 samples.

Results

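The amino acid response was examined through 44 genes, all read from the count table by gene symbol. They comprised 7 stress factors, 4 other target genes of ATF4, 5 enzymes of serine and one-carbon metabolism, 8 amino acid transporters and 20 aminoacyl-tRNA synthetase genes that serve the cytosol. The 44 were taken from 55421 genes in the table. Every symbol was present as written, and all 44 were among the 20588 genes with enough counts to be tested. The lowest count of any of them in any library was 12, for Atf3.

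When amino acids run short, uncharged tRNAs activate the kinase GCN2, which phosphorylates the translation initiation factor eIF2α. Bulk translation then slows, while the mRNA of the transcription factor ATF4 is translated more efficiently, and ATF4 together with C/EBP proteins activates genes for amino acid synthesis, uptake and tRNA charging. Because much of this control acts on the translation of Atf4 mRNA, the level of that mRNA is not a measure of ATF4 protein. None of the readouts here measured protein or eIF2α phosphorylation.

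The samples were primary cultures of spermatogonia (SSC culture), the germ cells that found spermatogenesis, from mouse pups of the background C57BL/6XDBA/2. They were grown on mouse embryonic fibroblast feeder cells with N2 supplement, bFGF and GDNF, and all carried a knockout: Stra8KO cultures lacked the retinoic acid-responsive meiotic factor STRA8, and Spo11KO cultures lacked SPO11, which cuts DNA to start meiotic recombination. Each genotype was treated for 2 days with vehicle (Veh) or with NRRA, a nutrient restriction medium plus retinoic acid. That medium was SSC medium diluted mostly with Earle's balanced salt solution, which holds no amino acids. The dilution also lowered the growth factors, serum and other supplements of the SSC medium. The 4 groups had 2 poly(A) RNA-seq libraries each, 8 in all. No group here received nutrient restriction or retinoic acid alone, so the parts of these treatments in any difference cannot be told apart. The libraries of a group are described by the study as independent biological replicates. How many separately derived cultures stand behind each genotype is not given in the sources used here. A difference between genotypes therefore cannot be told apart from one between culture lines. Wild-type cultures were not analysed here.

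Library totals ran from 20960794 to 27038868 counts. Stra8 had 2 and 0 counts with vehicle but 169 and 170 with NRRA in Stra8KO cultures, against 28 and 12 with vehicle and 12604 and 16191 with NRRA in Spo11KO cultures. Spo11 counts were not lower in the cultures labelled Spo11KO (72 to 148) than in the cultures labelled Stra8KO (31 to 68), so that gene did not check the label. Fibroblast markers (16 genes, all called) were higher in Stra8KO than in Spo11KO libraries in both media, with summed levels of 25379 and 25991 CPM with vehicle and 41543 and 40979 with NRRA in Stra8KO cultures, against 13427 and 13517 with vehicle and 21675 and 20971 with NRRA in Spo11KO cultures. Levels are in CPM, meaning counts per 1000000 with library sizes scaled by TMM. In bulk RNA, fewer cells of a type and less RNA per cell cannot be told apart, and the libraries mix germ cell and feeder RNA.

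ATF4 and its C/EBP partners bind a composite element whose core was searched as TGATGNAA on both strands (TTNCATCA when read on the other strand). RefSeq promoter windows of 300 bases, from 250 before to 50 after the start, were at hand for 32 of the 44 genes. The core was found in 13 of these 32 genes (40.6%), against 4.51% of all 27025 genes with a window, and in 37.1% of their windows, against 3.97% of all 32851 windows of the same length. It was present in 3 of 7 stress factors, 3 of 3 other ATF4 targets, 5 of 12 synthetases, 2 of 5 transporters and 0 of 5 serine and one-carbon enzymes. By comparison, it was found in 0 of 14 genes for mitochondrial tRNA synthetases and in 0 of 7 genes for eIF2α kinases and phosphatase subunits, in 0 of 3 scaffold genes of the synthetase complex, in 4 of 21 further ATF4 target genes and in 1 of 11 endoplasmic reticulum chaperone genes. No window was at hand for Vars, Slc1a5, Mars, Cth, Slc7a3, Nars, Cars, Rars, Lars, Wars, Slc7a5 or Hars. A match is a description of letters, and these libraries hold no measurement of binding.

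Stretches that hold the core in 12 of the 13 genes are printed 5′ to 3′ on the strand of the gene, from RefSeq on GRCm38.p6, with the matched letters in capitals. The longest is the promoter of Slc7a11, the transporter gene with the largest fall described below, since it was the only gene with 2 matches before the start, beginning 66 and 47 bases upstream and on opposite strands, at chr3:50443614-50443863, minus strand, outside the gene as GENCODE M21 annotates it.
Slc7a11: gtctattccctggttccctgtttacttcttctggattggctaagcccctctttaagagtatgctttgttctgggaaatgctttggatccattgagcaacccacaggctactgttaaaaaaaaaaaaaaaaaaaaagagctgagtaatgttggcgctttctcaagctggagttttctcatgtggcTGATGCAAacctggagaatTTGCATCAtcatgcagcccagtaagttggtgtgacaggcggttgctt
The stress factor stretches follow. That of Atf3 (chr1:191183406-191183473, minus strand) lies in an intron of a longer annotated transcript, that of Nupr1 (chr7:126625562-126625591, minus strand) in an annotated exon, and that of Trib3 (chr2:152344028-152344057, minus strand) has its match 15 bases after the RefSeq start but before the gene in GENCODE.
Atf3: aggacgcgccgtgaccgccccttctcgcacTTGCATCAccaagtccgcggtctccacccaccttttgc
Nupr1: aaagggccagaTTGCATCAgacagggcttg
Trib3: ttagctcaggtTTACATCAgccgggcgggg
Those of Asns (chr6:7693214-7693243, minus strand) and Vldlr (chr19:27216809-27216838, plus strand) lie in annotated exons, and that of Chac1 (chr2:119351019-119351086, plus strand) lies upstream of its gene.
Asns: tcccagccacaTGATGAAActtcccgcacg
Chac1: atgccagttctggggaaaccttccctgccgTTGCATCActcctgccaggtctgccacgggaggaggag
Vldlr: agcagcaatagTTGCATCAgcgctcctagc
The synthetase and transporter stretches are shown so that genes with a called change between NRRA and vehicle can be set beside those with none, such as Tars. Those of Iars (chr13:49682126-49682155, plus strand) and Yars (chr4:129189895-129189924, plus strand) are in annotated exons, those of Gars (chr6:55037941-55038000, plus strand) and Tars (chr15:11399659-11399703, minus strand) have the match upstream of the gene, and that of Slc1a4 (chr11:20332699-20332728, minus strand) has a match that runs from 4 bases upstream of the start into the first exon.
Iars: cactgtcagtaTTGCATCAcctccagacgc
Yars: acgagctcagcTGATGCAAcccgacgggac
Gars: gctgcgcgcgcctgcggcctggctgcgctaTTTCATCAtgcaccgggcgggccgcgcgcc
Tars: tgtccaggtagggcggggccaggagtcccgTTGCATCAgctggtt
Slc1a4: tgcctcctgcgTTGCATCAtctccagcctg
Genes with and without the core were both found among those that rose and those that fell, as the values below show.

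The comparison of NRRA with vehicle asked how the amino acid response stood, in each genotype, in medium poor in amino acids. That medium was also poor in growth factors and other supplements and held added retinoic acid. In Stra8KO cultures 31 of the 44 genes were called, 13 higher and 18 lower under NRRA, where 41.5% of all tested genes were called (21.4% higher and 20.1% lower). In Spo11KO cultures 34 were called, 5 higher and 29 lower, where 50.3% of all tested genes were called (24.7% higher and 25.5% lower). Calls rest on edgeR's quasi-likelihood test at an adjusted p under 0.05. The median log2 fold change of the 44 genes was -0.066 in Stra8KO and -0.26 in Spo11KO, beside 0.013 over all tested genes in either genotype. Most differences were small: only Ddit3 and Slc7a11 in Stra8KO, and Ddit4, Phgdh, Shmt2 and Slc7a11 in Spo11KO, were called with a change of at least 2-fold.

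**Figure D1:**
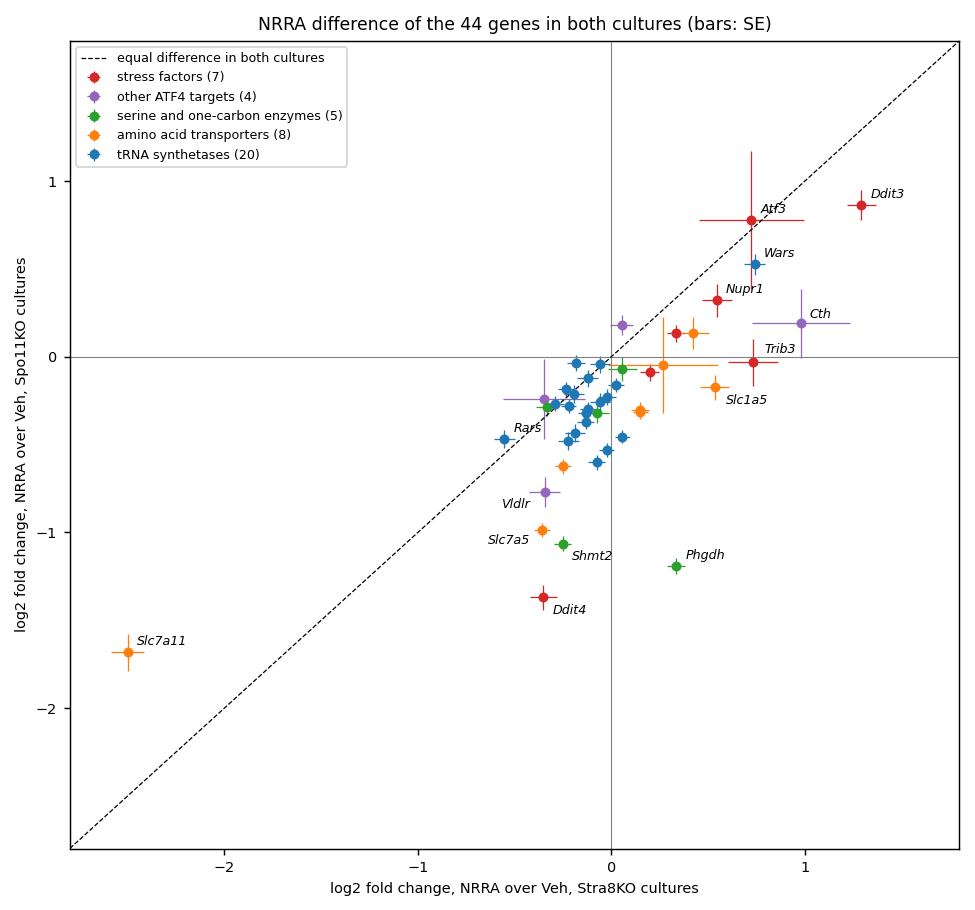
Log2 fold change of NRRA over Veh for the 44 genes in Stra8KO cultures (x axis) and Spo11KO cultures (y axis), 1 point per gene coloured by class with bars of 1 standard error, and a dashed line of equal differences. Of the 44 points, 34 lie below the line, and Slc7a11 (-2.50 and -1.68) and Phgdh (0.34 and -1.19) stand apart from the rest.

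The same genes were called in either genotype only in part. Of the 44, 4 were higher in both (Ddit3, Nupr1, Sesn2 and Wars), 17 were lower in both, 4 were higher in Stra8KO and lower in Spo11KO (Phgdh, Slc1a5, Slc38a2 and Slc7a1), and 4 were called in neither (Chac1, Psph, Slc7a3 and Tars). A further 5 were higher in Stra8KO with no call in Spo11KO (Atf3, Atf4, Cth, Slc1a4 and Trib3), and 8 were lower in Spo11KO with no call in Stra8KO. The other 2 were Hars, lower in Stra8KO only by call, and Asns, higher in Spo11KO only by call. The share of all tested genes in each of these joint classes was not counted, so the numbers only describe the 44 genes. Whether a response differed between the genotypes was tested by the interaction, the log2 NRRA fold change in Stra8KO minus that in Spo11KO. The interaction was called for 27 of the 44 genes, 26 of them positive and 1 negative (Slc7a11), where 24.7% of all tested genes were called (14.6% higher and 10.1% lower), and its median over the 44 genes was 0.23, beside 0.013 over all tested genes. With total counts in place of TMM scaling it was called for 18, 15 positive and 3 negative. A positive interaction means that the level after NRRA, relative to vehicle, was higher in Stra8KO than in Spo11KO. In 14 of the 27 the call held under each of the 15 alternative fits of the interaction, 13 positive (Aars, Atf4, Ddit4, Iars, Kars, Phgdh, Shmt2, Slc1a5, Slc38a2, Slc3a2, Slc7a1, Slc7a5 and Trib3) and 1 negative (Slc7a11).

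**Figure D2:**
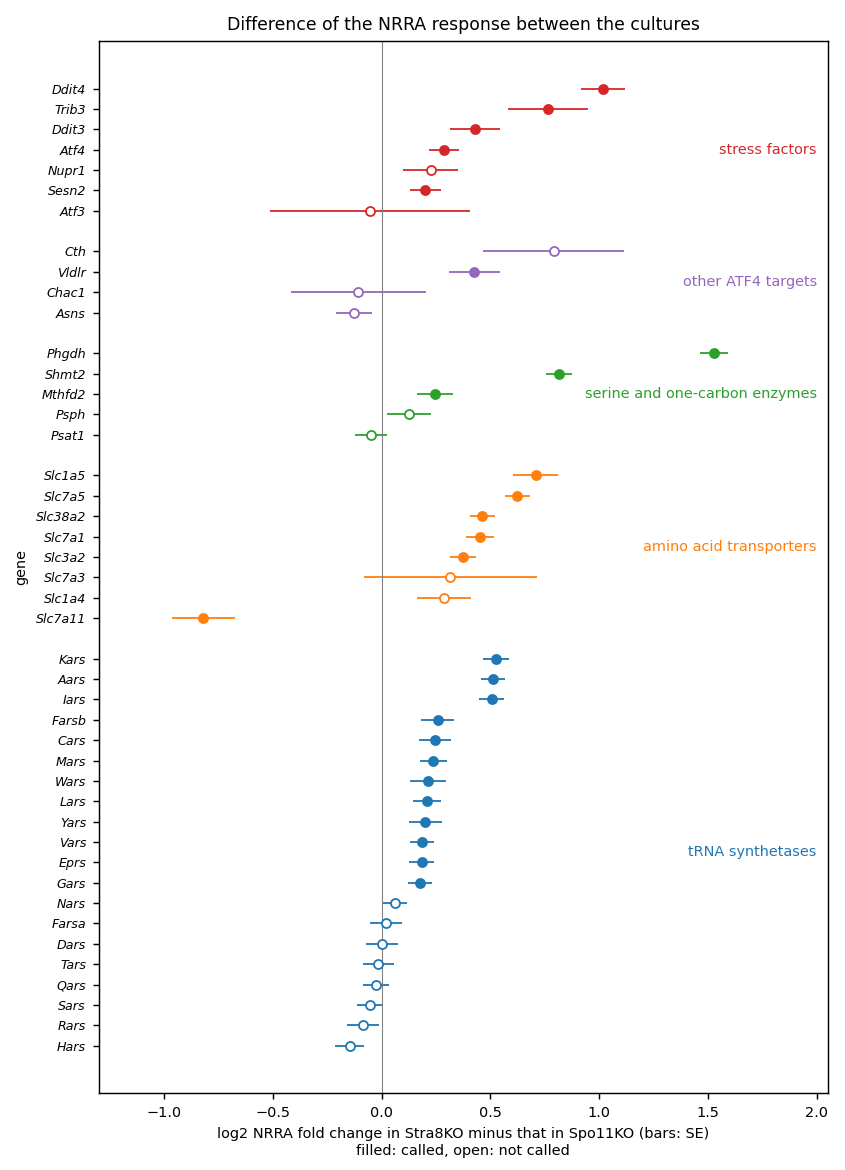
Interaction of each gene (log2 NRRA fold change in Stra8KO minus that in Spo11KO, x axis, bars of 1 standard error), grouped by class, with filled points for called genes and open points for the others. The called points lie right of 0 except Slc7a11 at -0.82, and Phgdh at 1.53 lies farthest right.

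Among the stress factors, which take the response beyond amino acid supply, all 7 were called in Stra8KO cultures, 6 higher and Ddit4 lower. In Spo11KO cultures 3 were higher, Ddit4 was lower and 3 were not called, and the median log2 fold change was 0.55 and 0.13. Of all tested genes 41.5% were called in Stra8KO and 50.3% in Spo11KO. Atf4, the regulator itself, had 126 and 121 CPM with vehicle and 137 and 146 with NRRA in Stra8KO cultures, and 105 and 104 with vehicle and 93.1 and 103 with NRRA in Spo11KO cultures. The Stra8KO libraries thus lay above the Spo11KO libraries in both media. The media did not overlap in Stra8KO, while in Spo11KO the nearest libraries almost met (103.8 CPM with vehicle and 103.2 with NRRA). Atf4 rose in Stra8KO (log2 fold change 0.20, SE 0.049, edgeR adjusted p = 0.000941) and was not called in Spo11KO (-0.089, adjusted p = 0.135), and its interaction was 0.29 (SE 0.070, adjusted p = 0.00153). Without replicate 2 of Spo11KO NRRA, the value in Spo11KO was -0.18 and was called.

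Ddit3, which encodes the stress transcription factor CHOP, had the largest rise of the 44 genes in both genotypes. It had 22.1 and 25.2 CPM with vehicle and 59.0 and 56.5 with NRRA in Stra8KO cultures, and 16.3 and 14.1 with vehicle and 26.5 and 28.7 with NRRA in Spo11KO cultures. Every NRRA library lay above every vehicle library of either genotype. The rise was 2.45-fold in Stra8KO (log2 1.29, SE 0.074, edgeR adjusted p = 1.59e-18) and 1.82-fold in Spo11KO (log2 0.86, SE 0.084, adjusted p = 1.34e-11). Its interaction of 0.43 (adjusted p = 0.0039) lost its call without replicate 1 of Stra8KO Veh (0.33) or replicate 1 of Spo11KO Veh (0.32). The last 68 bases of Ddit3 overlap the end of Mars on the opposite strand, and Mars had log2 fold changes of -0.13 and -0.37.

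Trib3 encodes a pseudokinase that dampens ATF4 and CHOP activity. It had 7.74 and 7.60 CPM with vehicle and 12.7 and 12.8 with NRRA in Stra8KO cultures, and 7.71 and 7.44 with vehicle and 6.25 and 8.46 with NRRA in Spo11KO cultures. Only the Stra8KO NRRA libraries stood apart, and the other 6 libraries overlapped. Trib3 rose 1.66-fold in Stra8KO (log2 0.73, SE 0.13, edgeR adjusted p = 7.59e-06), had -0.031 in Spo11KO (adjusted p = 0.869), and its interaction was 0.76 (SE 0.19, adjusted p = 0.00159).

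Ddit4 encodes REDD1, an inhibitor of the nutrient-sensing kinase complex mTORC1, and went against the other stress factors. Its levels were 54.7 and 53.5 CPM with vehicle and 41.9 and 42.9 with NRRA in Stra8KO cultures, and 70.6 and 58.3 with vehicle and 25.7 and 24.2 with NRRA in Spo11KO cultures. The NRRA libraries were below the vehicle libraries in both genotypes, and the lowest were those of Spo11KO NRRA. Ddit4 fell by 0.35 on the log2 scale in Stra8KO (SE 0.070, edgeR adjusted p = 6.52e-05) and by 1.37 in Spo11KO (SE 0.071, adjusted p = 1.31e-19), a 2.58-fold fall, with an interaction of 1.02 (SE 0.10, adjusted p = 1.23e-10).

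Atf3, a stress-induced transcription factor, was the scarcest stress factor. It had 1.61 CPM in both libraries with vehicle and 1.98 and 3.32 with NRRA in Stra8KO cultures, and 0.505 and 0.740 with vehicle and 1.16 and 0.989 with NRRA in Spo11KO cultures. The 2 Stra8KO NRRA libraries (41 and 72 counts) lay apart from each other, and all Stra8KO libraries lay above all Spo11KO libraries. The rise in Stra8KO (log2 0.72, SE 0.27, edgeR adjusted p = 0.0285) became 0.30 and lost its call without replicate 2 of Stra8KO NRRA, and lost it too without replicate 1 (0.72) or replicate 2 (0.73) of Stra8KO Veh. In Spo11KO the value was 0.78 with no call (adjusted p = 0.0959).

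Sesn2 and Nupr1 rose in both genotypes. Sesn2 encodes sestrin 2, a leucine sensor that restrains mTORC1, and had log2 fold changes of 0.34 in Stra8KO and 0.13 in Spo11KO, while Nupr1, a small stress-induced nuclear protein, had 0.55 and 0.32. In Spo11KO the call of Sesn2 was lost without replicate 2 of Veh (0.062) or either NRRA library (0.14 and 0.11), and that of Nupr1 without replicate 2 of Veh (0.26) or of NRRA (0.24). The interaction of Sesn2 (0.20) was called and lost without replicate 1 of either vehicle group (0.16 and 0.14) and in 2 further omissions, and that of Nupr1 (0.23) was not called.

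**Figure D3:**
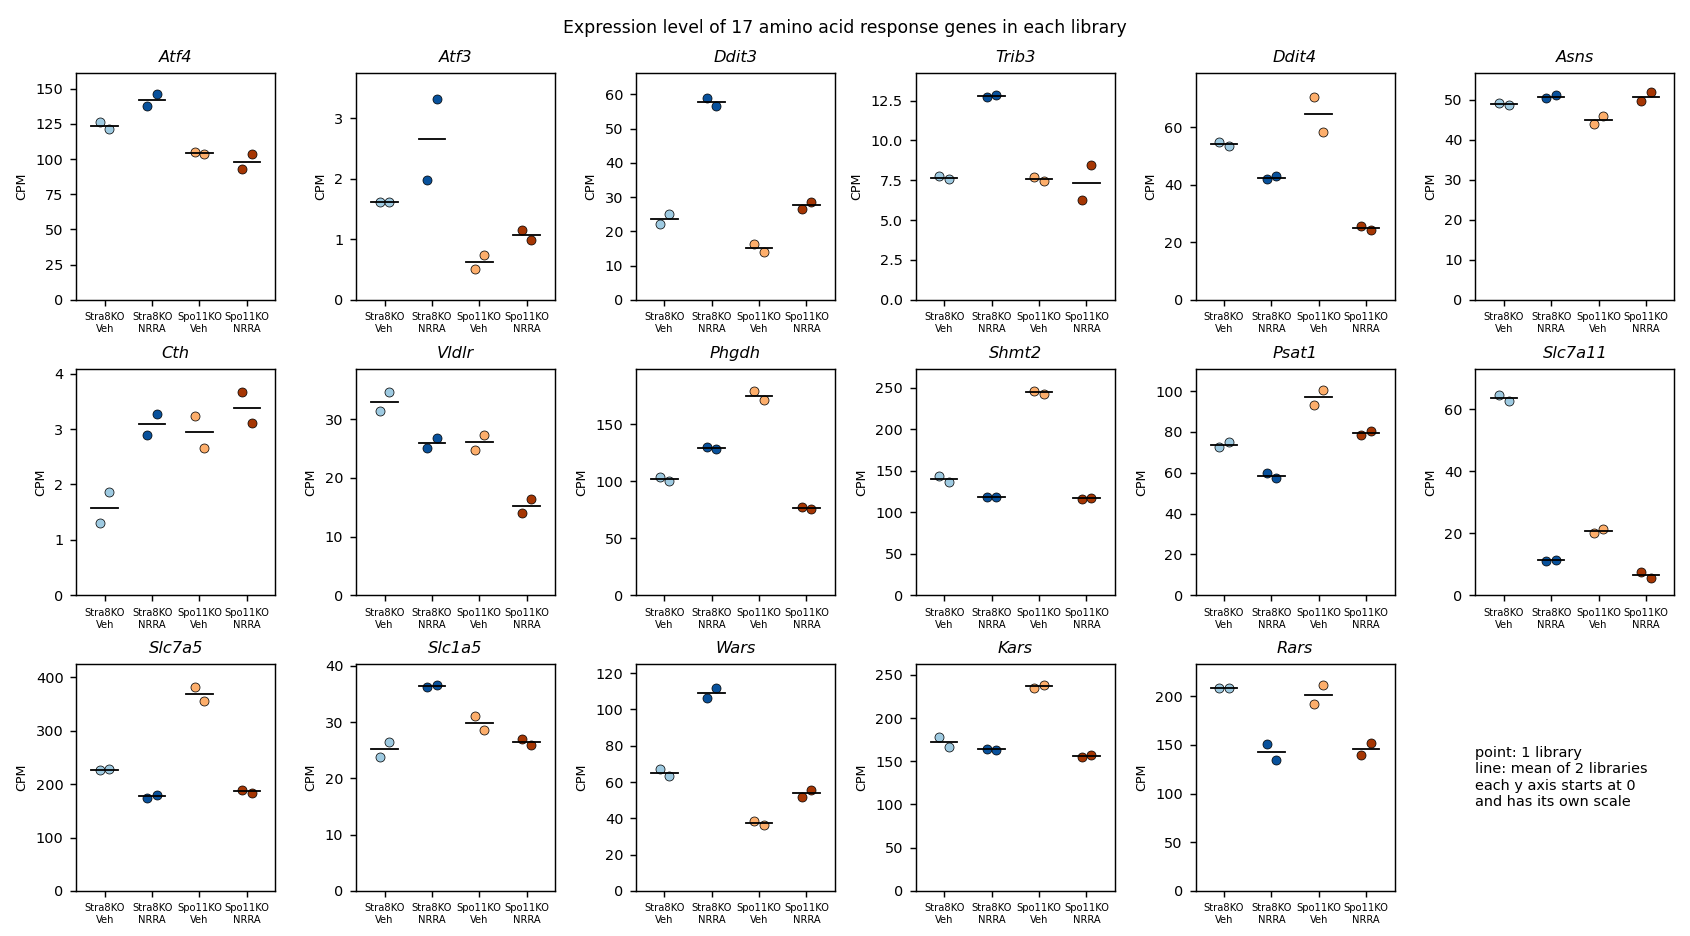
Level in CPM (y axis, from 0, own scale per gene) of 17 genes in the 8 libraries, 1 point per library and a line at the mean of the 2 libraries of each group along the x axis. Ddit3 and Wars are higher and Slc7a11 and Ddit4 are lower in NRRA than in Veh libraries of both genotypes, Trib3 is high only in Stra8KO NRRA (12.7 and 12.8 CPM), and Phgdh goes in opposite directions.

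The 4 other ATF4 targets had no common direction. Asns encodes asparagine synthetase and is the classical reporter gene of the amino acid response. It had 49.2 and 48.6 CPM with vehicle and 50.4 and 51.1 with NRRA in Stra8KO cultures, and 43.8 and 45.8 with vehicle and 49.5 and 51.96 with NRRA in Spo11KO cultures. All 8 libraries lay between 43.8 and 51.96 CPM, a narrow range beside that of Ddit3. In Stra8KO the log2 fold change was 0.053 (SE 0.060, edgeR adjusted p = 0.516), and in Spo11KO it was 0.18 (SE 0.058, adjusted p = 0.00862), a call that was lost without replicate 1 of Spo11KO Veh (0.15) or replicate 2 of Spo11KO NRRA (0.13). The interaction was not called (-0.13, adjusted p = 0.301).

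Cth encodes cystathionine gamma-lyase, which makes cysteine in the transsulphuration pathway. It was scarce, with 1.30 and 1.86 CPM with vehicle and 2.90 and 3.28 with NRRA in Stra8KO cultures, and 3.24 and 2.65 with vehicle and 3.67 and 3.10 with NRRA in Spo11KO cultures. The Stra8KO Veh libraries lay below the other 6. The rise in Stra8KO (log2 0.98, SE 0.26, edgeR adjusted p = 0.00166) rested on 29 and 37 counts in vehicle, and its call was lost without replicate 1 of Stra8KO Veh (0.73). Chac1, a glutathione-degrading enzyme that is often the sharpest ATF4 target, had 1.89 to 4.03 CPM over the 8 libraries and was called in neither genotype (log2 -0.35 and -0.24).

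Vldlr, a lipoprotein receptor, had 31.3 and 34.7 CPM with vehicle and 25.1 and 26.8 with NRRA in Stra8KO cultures, and 24.8 and 27.4 with vehicle and 14.1 and 16.3 with NRRA in Spo11KO cultures. It was lower under NRRA than in vehicle within each genotype, while Stra8KO NRRA overlapped Spo11KO Veh. Vldlr fell by 0.34 on the log2 scale in Stra8KO (edgeR adjusted p = 0.000529) and by 0.77 in Spo11KO (adjusted p = 4.65e-10). Its interaction of 0.43 was lost without replicate 1 of Stra8KO Veh (0.35) or of Spo11KO NRRA (0.32).

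The enzymes that make serine and pass its carbon to folate set 1 group apart in summed level. The 5 genes summed to 386 and 380.4 CPM with vehicle and 374 and 369.8 with NRRA in Stra8KO cultures, and 619 and 616 with vehicle and 359.0 and 359.7 with NRRA in Spo11KO cultures. Only the Spo11KO Veh libraries stood apart, and they were the highest. In Stra8KO 1 enzyme rose and 2 fell, and in Spo11KO 4 fell, where 41.5% and 50.3% of all tested genes were called.

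Phgdh encodes phosphoglycerate dehydrogenase, the first enzyme of serine synthesis, and had the largest interaction of the 44 genes. It had 104 and 100.2 CPM with vehicle and 129.9 and 128 with NRRA in Stra8KO cultures, and 179 and 171 with vehicle and 77.9 and 75.5 with NRRA in Spo11KO cultures. Under NRRA the Stra8KO libraries were above their vehicle libraries and the Spo11KO libraries were below theirs, with replicates close together in every group. Phgdh rose 1.26-fold in Stra8KO (log2 0.34, SE 0.046, edgeR adjusted p = 8.63e-08) and fell 2.28-fold in Spo11KO (log2 -1.19, SE 0.046, adjusted p = 1.67e-24). The interaction was 1.53 (SE 0.065, adjusted p = 7.32e-22).

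Shmt2, the mitochondrial serine hydroxymethyltransferase that splits serine into glycine and a one-carbon unit, had 143 and 137 CPM with vehicle and 118 each with NRRA in Stra8KO cultures, and 246 and 243 with vehicle and 116 and 117 with NRRA in Spo11KO cultures. The vehicle groups lay far apart and the NRRA groups did not. It fell 1.19-fold in Stra8KO (edgeR adjusted p = 7.78e-06) and 2.09-fold in Spo11KO (adjusted p = 4.13e-24), with an interaction of 0.81 (SE 0.061, adjusted p = 3.11e-14).

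Psat1, the aminotransferase that follows Phgdh, went in the same direction in both genotypes, unlike Phgdh. It had 72.6 and 74.9 CPM with vehicle and 59.7 and 57.4 with NRRA in Stra8KO cultures, and 93.3 and 101 with vehicle and 78.4 and 80.5 with NRRA in Spo11KO cultures. The NRRA libraries lay below the vehicle libraries in both genotypes. Psat1 fell by 0.33 and 0.29 on the log2 scale, and its interaction was -0.047 (SE 0.074) with no call. Mthfd2, a mitochondrial folate enzyme, fell in Spo11KO (-0.32) and had -0.074 with no call in Stra8KO, and Psph, the last enzyme of serine synthesis, was called in neither (0.057 and -0.070). The interaction of Mthfd2 (0.25) was lost in 5 of the 8 fits that left out 1 library (0.22 to 0.25).

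Among the 8 amino acid transporters, 4 rose and 3 fell in Stra8KO cultures, and 6 fell in Spo11KO cultures with none higher. The shares called over all tested genes were 41.5% and 50.3%. The summed level of the transporters went from 813 and 809.5 CPM in Stra8KO Veh to 735 and 737 in Stra8KO NRRA, and from 949 and 931 in Spo11KO Veh to 617 and 613 in Spo11KO NRRA. Slc7a11 encodes xCT, which imports cystine in exchange for glutamate, and fell more than any other of the 44 genes in both genotypes. It had 64.7 and 62.6 CPM with vehicle and 11.1 and 11.4 with NRRA in Stra8KO cultures, and 20.1 and 21.4 with vehicle and 7.45 and 5.56 with NRRA in Spo11KO cultures. Stra8KO Veh lay above all other groups. The fall was 5.66-fold in Stra8KO (log2 -2.50, SE 0.085, edgeR adjusted p = 2.73e-26) and 3.21-fold in Spo11KO (log2 -1.68, SE 0.10, adjusted p = 2.3e-17). Its interaction (-0.82, SE 0.14, adjusted p = 2.22e-05) was the only negative one called.

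Slc7a5 encodes LAT1, which carries leucine and other large neutral amino acids, and had the highest level per length of the 44 genes in Spo11KO Veh (99.6 RPKM, CPM per kilobase of exon). It had 226 and 229 CPM with vehicle and 173 and 181 with NRRA in Stra8KO cultures, and 383 and 356 with vehicle and 189 and 184 with NRRA in Spo11KO cultures. Vehicle libraries were above NRRA libraries in both genotypes. It fell 1.28-fold in Stra8KO (edgeR adjusted p = 1.52e-09) and 1.98-fold in Spo11KO (adjusted p = 1.97e-23). Slc3a2, the heavy chain that pairs with LAT1 and xCT, fell by 0.25 and 0.62 on the log2 scale in the same order.

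The glutamine carrier Slc1a5 (ASCT2) went the other way in Stra8KO cultures. It had 23.8 and 26.5 CPM with vehicle and 36.2 and 36.6 with NRRA in Stra8KO cultures, and 31.0 and 28.7 with vehicle and 26.97 and 26.0 with NRRA in Spo11KO cultures. Only Stra8KO NRRA stood above the rest. Slc1a5 rose in Stra8KO (log2 0.53, SE 0.075, edgeR adjusted p = 1.19e-07), and its interaction was 0.71 (SE 0.10, adjusted p = 8.99e-07). The smaller fall in Spo11KO (-0.17, adjusted p = 0.0427) lost its call in 4 of the 8 fits that left out 1 library, among them the one without replicate 1 of Spo11KO Veh (-0.12), the largest move, and the others without replicate 2 of Stra8KO NRRA (-0.17) or replicate 1 (-0.21) or 2 (-0.16) of Spo11KO NRRA.

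Slc38a2, the neutral amino acid carrier SNAT2 and a well-studied target of the response, had log2 fold changes of 0.15 in Stra8KO and -0.31 in Spo11KO, both called, and an interaction of 0.46 (edgeR adjusted p = 2.63e-08). Slc7a1, which imports arginine and lysine, had 0.15 and -0.30, both called, and an interaction of 0.45 (adjusted p = 4.95e-07). Their rises in Stra8KO were lost without replicate 2 of Stra8KO Veh for Slc38a2 (0.13), and without replicate 1 of Stra8KO Veh (0.13) or replicate 2 of Stra8KO NRRA (0.12) for Slc7a1. Slc1a4, which carries serine and alanine, rose in Stra8KO (0.42) and had 0.14 with no call in Spo11KO. Slc7a3, a second carrier of cationic amino acids, had 30 to 46 counts per library and was called in no comparison.

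The tRNA synthetases, which charge tRNAs with their amino acids, made up most of the members' RNA. The 20 genes summed to 3203 and 3155 CPM with vehicle and 2997 and 2926 with NRRA in Stra8KO cultures, and 3553 and 3626 with vehicle and 2899 and 2942 with NRRA in Spo11KO cultures. NRRA libraries were lower in both genotypes. In Stra8KO 11 synthetase genes fell and 1 rose, and in Spo11KO 17 fell and 1 rose (14 and 1 with total counts in place of TMM scaling). Of all tested genes 20.1% were called lower in Stra8KO and 25.5% in Spo11KO. The median log2 fold change was -0.13 in Stra8KO, with a range from -0.55 to 0.74, and -0.27 in Spo11KO, with a range from -0.60 to 0.53, so that no synthetase changed 2-fold.

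**Figure D4:**
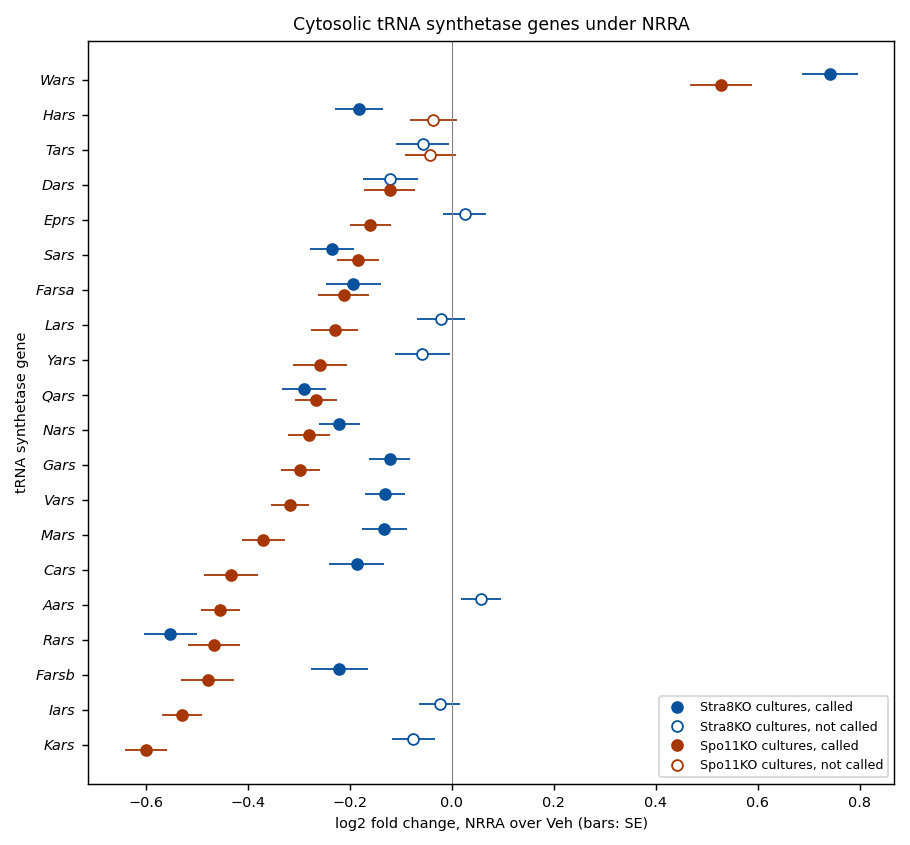
Log2 fold change of NRRA over Veh (x axis, bars of 1 standard error) for each of the 20 cytosolic tRNA synthetase genes in Stra8KO and Spo11KO cultures, filled where called. Wars lies far right of the others at 0.74 and 0.53, Kars, Iars and Aars lie near 0 in Stra8KO and between -0.60 and -0.45 in Spo11KO, and Rars is low in both.

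Wars, the tryptophan enzyme, was the exception in both genotypes. It had 67.1 and 63.3 CPM with vehicle and 106 and 112 with NRRA in Stra8KO cultures, and 38.5 and 36.2 with vehicle and 51.8 and 55.8 with NRRA in Spo11KO cultures. Every NRRA library lay above its vehicle libraries, and every Stra8KO library lay above the vehicle libraries of Spo11KO. The rise was 1.67-fold in Stra8KO (log2 0.74, SE 0.054, edgeR adjusted p = 4.24e-15) and 1.44-fold in Spo11KO (log2 0.53, SE 0.060, adjusted p = 7.48e-10). Wars is also known as an interferon-induced gene, unlike most synthetases. The call of its interaction (0.21, adjusted p = 0.0492) was lost in 5 of the 8 fits that left out 1 library (0.16 to 0.26). Wdr25 overlaps Wars on the opposite strand, and whether the counting used strand is not given in the sources used here.

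Rars, the arginine enzyme, had the largest fall among the synthetases in Stra8KO. It had 208 and 209 CPM with vehicle and 151 and 134 with NRRA in Stra8KO cultures, and 192 and 212 with vehicle and 139.8 and 152 with NRRA in Spo11KO cultures. The NRRA groups overlapped each other, as did the vehicle groups. Rars fell 1.47-fold in Stra8KO (edgeR adjusted p = 5.73e-10) and 1.38-fold in Spo11KO (adjusted p = 8.67e-09), with an interaction of -0.086 that was not called.

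Kars, the lysine enzyme, had the largest fall among them in Spo11KO. Its levels were 178 and 167 CPM with vehicle and 165 and 163 with NRRA in Stra8KO cultures, and 235 and 239 with vehicle and 155 and 157 with NRRA in Spo11KO cultures. Spo11KO Veh stood above the other 6 libraries. Kars fell 1.52-fold in Spo11KO (log2 -0.60, SE 0.041, edgeR adjusted p = 4.36e-16), was not called in Stra8KO (-0.076, adjusted p = 0.157), and had an interaction of 0.53 (SE 0.059, adjusted p = 2.44e-09).

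The isoleucine enzyme Iars and the alanine enzyme Aars were likewise called under NRRA in Spo11KO alone. In Spo11KO Veh, Iars stood above the other 6 libraries, while Aars lay among the Stra8KO libraries and was lowest in Spo11KO NRRA. In Stra8KO they had log2 fold changes of -0.024 and 0.057 with no call, in Spo11KO they fell by 0.53 and 0.45, and their interactions were 0.51 for each (edgeR adjusted p = 1.73e-09 and 8e-10). Of the 20 synthetases, 12 had a called interaction, beside 24.7% of all tested genes. All 12 were positive (8 positive and 1 negative with size factors, 3 positive and 1 negative with total counts). Only Aars, Iars and Kars kept that call under all 15 alternatives. Yars lost it in each of the 8 fits that left out 1 library, and Cars, Eprs, Farsb, Gars, Lars, Mars, Vars and Wars lost it in some of them. In Stra8KO the falls of Cars, Farsa, Farsb, Gars, Hars, Mars and Vars (-0.22 to -0.12) were lost in at least 1 such fit, and in Spo11KO that of Dars (-0.12) was lost.

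**Figure D5:**
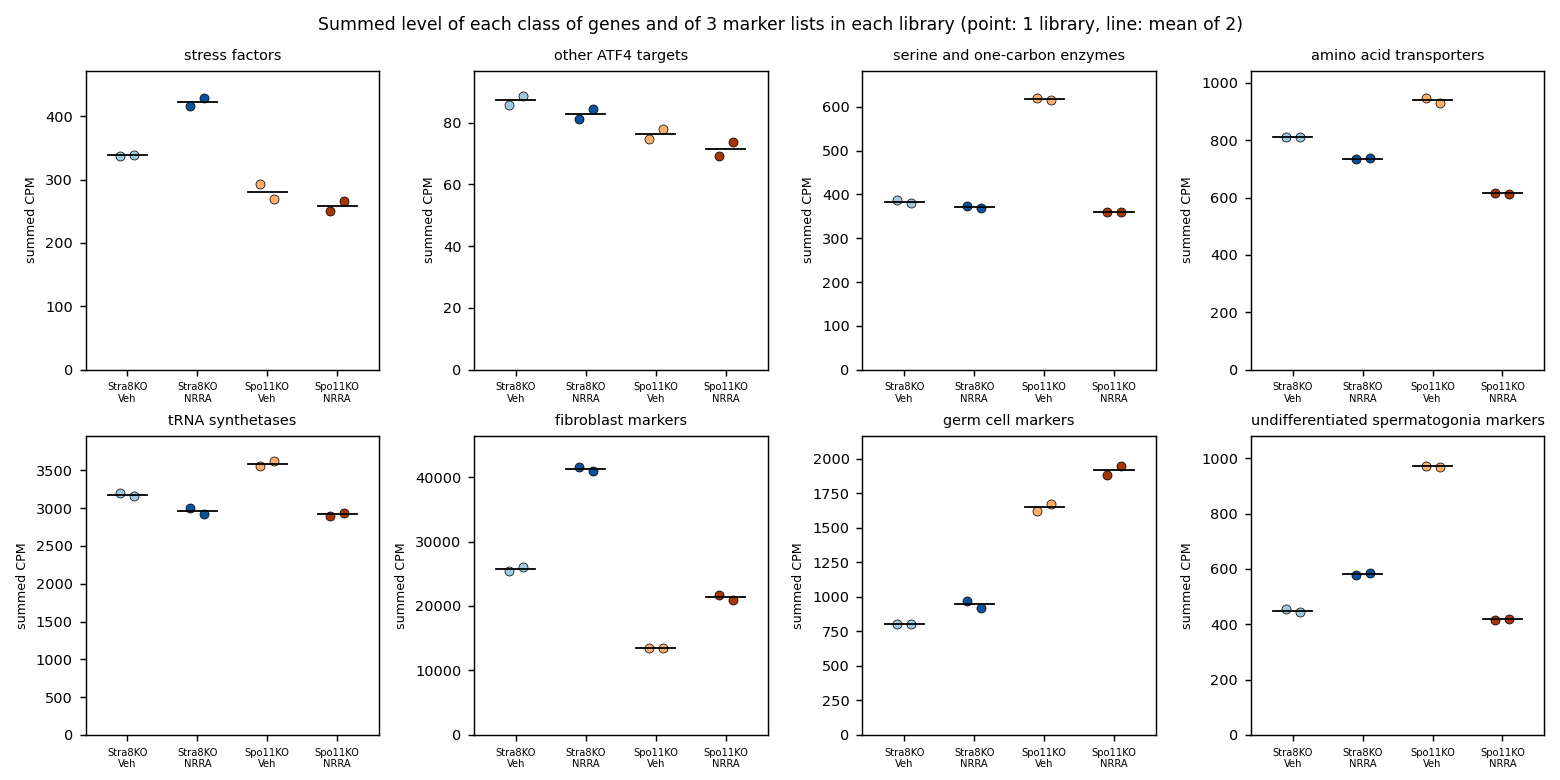
Summed level in CPM (y axis, from 0, own scale per panel) of gene classes and marker lists in the 8 libraries, 1 point per library with a line at the group mean, groups along the x axis. Spo11KO Veh is highest for the serine enzymes (619 and 616 CPM), transporters and synthetases, Stra8KO NRRA is highest for the stress factors (417 and 428 CPM), and fibroblast markers are higher in Stra8KO libraries.

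Stra8KO cultures were compared with Spo11KO cultures within each medium, and these comparisons share their libraries with those above. In vehicle 35 of the 44 genes were called, 14 higher and 21 lower in Stra8KO, where 62.1% of all tested genes were called (31.5% higher and 30.7% lower). Under NRRA 34 were called, 22 higher and 12 lower in Stra8KO (17 higher and 20 lower with total counts), where 64.3% of all tested genes were called (35.2% higher and 29.1% lower). In vehicle all 5 serine and one-carbon enzymes were lower in Stra8KO (log2 -0.80 to -0.33), as were Slc7a5 (-0.70) and Slc7a1 (-0.62), while Slc7a11 (1.62), Atf3 (1.37), Nupr1 (0.93) and Wars (0.80) were higher. Under NRRA all 7 stress factors were higher in Stra8KO, from 0.53 for Atf4 to 1.31 for Atf3, with Ddit3 at 1.06, Trib3 at 0.78 and Ddit4 at 0.77.

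The order of the groups thus differed between genes. Trib3 differed between the genotypes under NRRA (0.78, edgeR adjusted p = 4.18e-07) and was not called in vehicle (0.019), while Shmt2 differed in vehicle (-0.80) and was not called under NRRA (0.014). Ddit4, Iars, Phgdh, Slc1a5 and Slc3a2 were lower in Stra8KO in vehicle and higher in Stra8KO under NRRA, and the vehicle call of Ddit4 (-0.25) fell to -0.11 and was lost without replicate 1 of Spo11KO Veh. That of Slc1a5 (-0.25) was lost without replicate 1 of Stra8KO Veh (-0.17) or of Spo11KO Veh (-0.19). Asns, Hars, Rars and Slc7a3 were called in neither medium. The lower level of Cth in Stra8KO in vehicle (-0.91) was lost without replicate 1 of Stra8KO Veh (-0.66), and the higher one of Chac1 (0.55) without replicate 1 of Stra8KO Veh (0.45) or replicate 2 of Spo11KO Veh (0.31).

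Feeder, germ cell and some Sertoli cell markers moved with these comparisons. The 16 fibroblast markers were all higher in Stra8KO in both media (median log2 0.89 and 0.92), and the 9 germ cell markers were all lower (median -0.99 and -1.04), summing to 799 to 970 CPM in Stra8KO and 1623 to 1947 CPM in Spo11KO libraries. Under NRRA, 10 fibroblast markers rose and 4 fell in Stra8KO, and 11 rose and 5 fell in Spo11KO. Markers of undifferentiated spermatogonia (6 genes) differed in their response as well, with 4 higher and 2 lower in Stra8KO, 1 higher and 5 lower in Spo11KO, and 6 positive interactions of 6 (median 2.67). Their summed level was 443 to 456 CPM in Stra8KO Veh, 577 to 584 in Stra8KO NRRA, 969 to 973 in Spo11KO Veh and 415 to 420 in Spo11KO NRRA, with Spo11KO Veh highest as for the serine enzymes. Of the Sertoli cell markers 4 of 7 had enough counts to be tested, and Amh, Cldn11 and Fshr had 0 to 11 counts per library. Sox9 fell in both genotypes (log2 -1.29 and -1.54) and was higher in Stra8KO in both media (0.34 and 0.59), and Wt1 rose in Stra8KO (1.64), had -0.070 with no call in Spo11KO and had a called interaction of 1.71 (edgeR adjusted p = 9.03e-08). Dhh was higher in Stra8KO in vehicle (1.45), and Gata4 was called in no comparison. The part of the cell mixture in the differences of the 44 genes was not tested.

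The upstream arm of the pathway was read from 9 genes for eIF2α kinases, their cofactors, eIF2α itself and its phosphatase subunits. In Stra8KO 2 rose and 2 fell, in Spo11KO 3 rose and 3 fell, and 1 interaction was called (Gcn1, the cofactor that GCN2 needs, 0.20). The shares called were 44.4%, 66.7% and 11.1%, beside 41.5%, 50.3% and 24.7% of all tested genes. Eif2ak4, which encodes GCN2, had 36.7 and 38.2 CPM with vehicle and 66.3 each with NRRA in Stra8KO cultures, and 34.4 and 32.2 with vehicle and 53.7 and 56.5 with NRRA in Spo11KO cultures. NRRA libraries lay above vehicle libraries in both genotypes, and it rose by similar amounts (log2 0.82 and 0.73, edgeR adjusted p = 5.91e-15 and 1.9e-13), with an interaction of 0.098 (SE 0.087) that was not called. The gene of eIF2α, Eif2s1, fell by 0.26 and 0.29 on the log2 scale.

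A list of 24 further genes known to respond to ATF4, of which 23 could be tested, was read beside the members. In Stra8KO 10 rose and 3 fell (median log2 0.12), and in Spo11KO 6 rose and 11 fell (median -0.16). There were 13 interactions called, 12 positive and 1 negative (Slc36a4, named after its value was seen), with a median of 0.31. The shares called were 56.5%, 73.9% and 56.5%, beside 41.5%, 50.3% and 24.7% of all tested genes. Atf5, a transcription factor whose mRNA is also under translational control, had 139 and 132 CPM with vehicle and 296 and 306 with NRRA in Stra8KO cultures, and 72.1 and 65.7 with vehicle and 147 and 153 with NRRA in Spo11KO cultures. It rose alike in size in both genotypes (log2 1.15 and 1.12, edgeR adjusted p = 2.39e-24 and 5.74e-23), with an interaction of 0.030 (SE 0.065), and more than Atf4 itself did. Pycr1, an enzyme of proline synthesis, rose by 1.11 and 0.68, and Xpot, which exports tRNAs from the nucleus, had 0.42 and -0.26. Cbs, which precedes Cth in cysteine synthesis, was scarce, with 10 and 18 counts with vehicle and 80 and 88 with NRRA in Stra8KO cultures, and 19 and 21 with vehicle and 16 and 21 with NRRA in Spo11KO cultures, and rose in Stra8KO (2.57, adjusted p = 9.4e-10). Gdf15, a secreted stress signal, fell in both genotypes (-0.68 and -0.43).

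The synthetases that serve mitochondria, which are not classical ATF4 targets, were read as a contrast. Of 17 such genes, 3 rose and 4 fell in Stra8KO, 4 rose and 7 fell in Spo11KO, and 3 interactions were called, all positive (Ears2, Sars2 and Tars2). The shares called were 41.2%, 64.7% and 17.6%, beside 41.5%, 50.3% and 24.7% of all tested genes. The difference between this list and the cytosolic synthetases was not tested. Of the 3 scaffold genes of the multi-synthetase complex, Aimp1 and Eef1e1 fell in Stra8KO, Aimp2 and Eef1e1 fell in Spo11KO, and no interaction was called (-0.12 to 0.17, edgeR quasi-likelihood). Of 12 chaperone and related genes of the endoplasmic reticulum stress response, 3 rose and 1 fell in Stra8KO (33.3% called). In Spo11KO 3 rose and 6 fell (75.0% called). The chaperone gene Hspa5 had 0.057 with no call in Stra8KO and fell by 0.26 in Spo11KO. Herpud1 rose in both (0.40 and 0.39), while Xbp1 fell only in Spo11KO by call (-0.39), with an interaction of 0.45 (adjusted p = 1e-05). That was the most positive interaction of the 12 genes, whose values ran from -0.61 to 0.45 with a median of 0.071. Of these interactions 6 were called, 4 positive and 2 negative, so this list had no common direction.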

How the data were processed

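Poly(A) RNA was sequenced in 8 mouse libraries, 2 per group. The authors deposited raw read counts per gene in 1 table. The submitters' processing notes name bcl2fastq, STAR 2.6.1c, featureCounts 1.6.4 and mm10. The gene annotation, strand setting and treatment of multi-mapped reads are not given in the sources used here. The labels name TruSeq and NuGEN kits, and the study's methods a stranded poly(A) kit.

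Groups came from the labels. Genes passing filterByExpr (20588) were fitted with edgeR 4.0.16 (R 4.3.3, limma 3.58.1): TMM scaling, a group-means model over all 8 libraries, and robust two-sided quasi-likelihood tests of 5 contrasts. P-values were adjusted by Benjamini-Hochberg over all tested genes and called under 0.05. Each SE was set so that the squared ratio of log2 fold change to SE equals the F statistic. CPM followed TMM scaling, and RPKM used the exon union of GENCODE M21, which held 55240 of the deposited identifiers (99.67%). Of 2 identifiers named Ddit3, the one with counts was used. Replicates were counted separately, since the study describes them as independent. Their mean chi-square per gene was 1.86 to 4.12 and the median 0.74 to 0.97. These values do not tell separate cultures from repeated preparations of 1 culture. The common coefficient of variation that edgeR fitted between libraries of a group was 3.39%. The p-values are set against this small spread. The scripts were tested on simulated data.

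The 44 genes and all lists were chosen with earlier results of these data known. Values in every library are given for Atf4, Asns, Trib3, Ddit3 and Atf3 and for the 3 called genes of each class with the largest change. Pathway genes are named among the 3 called with the largest change per list and contrast. Alternatives were DESeq2 1.42.0 (used by the study), its size factors, total counts, other filters, edgeR's legacy dispersion, fits on fewer groups, a 2-fold minimum, a replicate block and leaving out each library. The promoter stretch of 1 gene is not reported here.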

Additional observations from a re-analysis of the deposited data

Results flagged for a closer look

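The response to NRRA differed between the genotypes for 27 of the 44 genes, by the interaction term of the edgeR fit at an adjusted p under 0.05, where 24.7% of all tested genes differed. The values are the log2 NRRA fold change in Stra8KO minus that in Spo11KO. Among the stress factors these were 0.29 for Atf4, 0.43 for Ddit3, 1.02 for Ddit4, 0.76 for Trib3 and 0.20 for Sesn2. The other target gene was Vldlr at 0.43. Among the serine and one-carbon enzymes they were 1.53 for Phgdh, 0.81 for Shmt2 and 0.25 for Mthfd2. The transporters were Slc7a5 at 0.62, Slc7a1 at 0.45, Slc3a2 at 0.37, Slc1a5 at 0.71 and Slc38a2 at 0.46, with Slc7a11 at -0.82. The synthetases were Kars at 0.53, Aars at 0.51, Iars at 0.51, Farsb at 0.26, Cars at 0.25, Mars at 0.24, Wars at 0.21, Lars at 0.21, Yars at 0.20, Vars at 0.19, Eprs at 0.18 and Gars at 0.17. The markers of undifferentiated spermatogonia differed between the genotypes as well (6 of 6 called), and their part was not tested. Genotype and culture line cannot be told apart here.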

How the results depend on the processing

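Of 3476 values recomputed for the 44 genes, 3262 kept their side of the threshold, 174 lost their call and 33 gained one. A further 7 turned in direction and were called in the main or the alternative fit. A turn in direction of a value called in neither fit was counted among the 3262. With a minimum change of 2-fold, 2 genes were called in Stra8KO, 4 in Spo11KO, 2 between genotypes in vehicle, 4 between genotypes under NRRA and 2 for the interaction. The interaction was called for 17 genes with no filter beyond 1 count and for 15 by the DESeq2 Wald test. It was called for 22 with DESeq2 size factors and for 18 with total counts. Over all genes, it was called for 4618 of 39921 with no filter and for 3346 of 39921 by the Wald test. With size factors and total counts these were 5095 and 5575 of 20588, beside 5094 of 20588 in the main fit. The cause of these differences was not tested. Total counts moved the median of all tested genes by -0.11 between genotypes in vehicle, by -0.21 under NRRA and by -0.093 for the interaction. They turned Aars in vehicle to -0.11, and Shmt2 (-0.19), Gars (-0.16), Iars (-0.053), Lars (-0.093), Sars (-0.097) and Kars (-0.14) under NRRA, all Stra8KO minus Spo11KO. Leaving out 1 library gave 25 to 32 genes called in Stra8KO, 31 to 34 in Spo11KO, 33 to 36 between genotypes in vehicle, 29 to 34 under NRRA and 19 to 25 for the interaction. Replicate numbers shared by the groups did not pair the libraries (correlation of replicate differences -0.068 to 0.14). With the replicate number as a block, 31, 34, 35, 34 and 25 genes were called, in the same order. With 2 libraries per group the spread was pooled over groups, and a library left alone was assumed to vary like the others. Precision was lowest for Atf3, Cth, Chac1 and Slc7a3, which had at most 95 counts in any library.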
